A study of Mus musculus with 12 samples.

Results

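Ribosomes are built from ribosomal RNA and a large set of ribosomal proteins. Cells of the mouse make a pair of kinds. The cytosolic ribosome reads the messenger RNAs of nuclear genes, and its proteins are named Rpl (large subunit), Rps (small subunit) and Rplp (the acidic stalk that recruits elongation factors). The mitochondrial ribosome reads the few messenger RNAs of the mitochondrial genome, which encode subunits of the respiratory chain, and its proteins (Mrpl and Mrps) are encoded in the nucleus and imported. T cells that leave rest are known to raise translation, and messenger RNAs of cytosolic ribosomal proteins typically begin with a run of pyrimidines that couples their translation to the kinase mTOR. The members described here are the gene rows of the count table whose symbols follow these naming patterns and that reach a mean of at least 1 CPM (counts-per-million, scaled to the library total) in some group. They number 158 of 55413 gene rows: 83 cytosolic (49 of the large and 34 of the small subunit) and 75 mitochondrial (49 and 26). Another 5 of the 163 matching names stayed below the limit.

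The libraries are bulk RNA sequencing of regulatory T (Treg) cells, CD4 T cells defined by the transcription factor Foxp3 that restrain other immune cells. Donors carried Foxp3YFP-cre, an allele that marks Foxp3-expressing cells with a yellow fluorescent protein. Sorted thymus-derived Treg cells (tTreg) of CD45.1 donors were given together with Foxp3- CD4+ and CD8+ T cells of CD45.2 donors, at 1 to 10 to 8, to TCRbd-/- hosts, which lack T cells of their own. Hosts were inoculated 3 days later with Hepa1-6, a mouse hepatoma line, and sorting from the tumors followed on day 18. Tumor pTreg (n = 3 libraries) are the tumor cells labelled pTreg, the term for Treg cells that arise from conventional CD4 T cells outside the thymus, tumor tTreg (n = 5) are those labelled tTreg, and LN Treg (n = 4) are total Treg cells from lymph nodes of mice without tumors and without treatment. The labels give Foxp3YFP-cre and TCRbd-/- as the genotype of every library and give no age, so what the lymph node donors share with the tumor hosts is not stated beyond this. LN Treg are therefore not separated by origin, and they differ from both tumor groups in tissue, tumor and transfer together, which cannot be told apart.

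Depth was 14.6 to 17.3 M counts in LN Treg, 18.0 to 18.2 M in tumor pTreg and 18.1 to 18.5 M in tumor tTreg. The labelled cell type was checked against marker genes, and it did not hold to the same degree in the 3 groups. The summed level of 18 genes shared by T cells (CD3 chains, T cell receptor constant regions, Lck and others) ranged from 6955 to 7127 CPM in LN Treg, 1423 to 1454 in tumor pTreg and 180.0 to 187.2 in tumor tTreg. All 18 were lower in each tumor group than in LN Treg (edgeR, adjusted p below 0.05). The 5 Treg markers (Foxp3, Il2ra, Ctla4, Ikzf2 and Cd4) summed to 3029 to 3136, 571.4 to 589.5 and 162.2 to 170.2 CPM. The summed level of 10 genes of hepatoma cells and hepatocytes went the other way, from 23.1 to 26.9 CPM in LN Treg to 9480 to 9804 in tumor pTreg and 11699 to 12294 in tumor tTreg, with Serpina1a at 0 in both tumor groups and Fgb at 0 in LN Treg. Of these 10, 7 passed the filter and were higher in both tumor groups, and the others (Apoa1, Ttr and Serpina1a) stayed below 0.3 CPM in every library. The 10 macrophage genes ranged from 32.7 to 40.9, from 5719 to 5769 and from 5749 to 6084 CPM. The 5 fibroblast genes read 1.65 to 3.22, 127 to 149 and 652 to 774 CPM, with Col3a1 and Pdgfra at 0 in LN Treg. The 4 endothelial genes summed to 188 to 193, 37.5 to 43.2 and 19.8 to 22.3 CPM, nearly all of it Pecam1 (means of 188.8, 30.9 and 18.4), which was lower in both tumor groups. Cdh5, Kdr and Tie1 were higher in both, with Tie1 at 0 CPM in LN Treg and means of 1.81 and 0.415 in the tumor groups. The 5 B cell genes read 11.8 to 13.3, 3.48 to 4.17 and 3.06 to 4.05. The 4 neutrophil genes ranged from 1.12 to 1.86, 39.7 to 41.1 and 38.1 to 41.4 CPM, and 4 globin genes of erythroid cells from 0 to 1.74, 25.7 to 46.4 and 25.3 to 38.6. The 2 CD8 genes read 18.3 to 23.0, 30.7 to 33.9 and 0.939 to 1.26 CPM in the same order, a wide gap between the tumor groups. Against LN Treg the sums of all these lists differed without overlap in both tumor groups. Between the tumor groups the T cell, Treg, CD8, hepatoma, fibroblast and endothelial sums differed without overlap. The macrophage, B cell, neutrophil and globin sums overlapped there. Ribosomal protein genes are active in every cell type, and the part of these marker levels in the results was not tested. In such bulk libraries fewer cells of a type and less RNA per cell cannot be told apart. The labels do not say that libraries of a group came from separate animals, so p-values measure the spread between libraries, which may be technical. Between any pair of libraries within a group, counts varied beyond sampling noise (chi-square divided by its degrees of freedom, 1.62 to 3.74), so no pair was merged as 1 library deposited again; this does not show that libraries came from separate animals.

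Start sites are shown here for some of the members that changed most in either direction, because the pyrimidine run at the start is what messenger RNAs of cytosolic ribosomal proteins are known for. Each line gives 30 bases, 15 before and 15 from the annotated start on, read 5′ to 3′ on the strand of the gene. Capitals mark the run of C and T that covers or touches the start.
Rps27: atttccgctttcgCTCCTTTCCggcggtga
Rpl34: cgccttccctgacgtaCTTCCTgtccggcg
Rps27l: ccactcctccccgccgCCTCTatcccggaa
Rps26: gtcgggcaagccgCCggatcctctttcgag
Rpl41: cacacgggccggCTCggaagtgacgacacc
Mrpl17: tactgcgcatgcgTCCTCTgagacgtgcct
Mrpl24: ttcctgtttcctgTCCattttgtagcaacg
Mrps6: tgctttcgccgtccgggagctgaccggccg

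These sequences come from RefSeq on GRCm38.p6. The positions are chr3:90213634-90213663 (minus strand) for Rps27, chr3:130730384-130730413 (minus) for Rpl34, chr9:66946071-66946100 (plus) for Rps27l, chr10:128626492-128626521 (minus) for Rps26 and chr10:128549154-128549183 (minus) for Rpl41. Those of the mitochondrial members are chr7:105811073-105811102 (minus) for Mrpl17, chr3:87919529-87919558 (plus) for Mrpl24 and chr16:92058321-92058350 (plus) for Mrps6. Each window spans the annotated start of its gene, which need not be the start used in these cells. Stretches of C and T away from it, such as the later one in the Rps26 window, were not counted. The run is 9 bases in Rps27 and 6 in Rpl34, which were lower in both tumor groups by counts of the whole library, but it is also 5 bases in Rps27l, which was higher, and 2 bases in Rps26 and 3 in Rpl41. Among mitochondrial members the run is 6 bases in Mrpl17, 3 in Mrpl24 and absent in Mrps6.

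A start window was found for 59 of the 83 cytosolic and 66 of the 75 mitochondrial members, and for 17492 protein-coding genes in all. A pyrimidine run of at least 5 bases stood at the start of 40.7% of cytosolic windows, 19.7% of mitochondrial windows and 18.6% of all windows. Motifs were searched on both strands in the 300 bases from 250 before to 50 after the start. CCGGAAG, the letters bound by ETS factors, was found in 39.0% of cytosolic, 31.8% of mitochondrial and 11.9% of all windows. ATGGCGG, found in sites of YY1, was in 16.9%, 18.2% and 5.44%. The other motifs searched were GGGCGG (61.0%, 48.5% and 46.3%), GCATGCG (6.78%, 10.6% and 4.49%), CACGTG (8.47%, 6.06% and 7.92%) and TATAAA (11.9%, 6.06% and 13.3%). GGGCGG and ATGGCGG share their last letters (GGCGG), so a match of each can end on the same bases. The CCGGAAG and ATGGCGG shares of both classes are above those of all windows, while the share with a long start run is high in the cytosolic class and close to that of all windows in the mitochondrial class.

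Cytosolic members with and without a long run at the annotated start had similar fold changes. A gene whose transcripts start elsewhere may be placed in the wrong group. The 24 members with a run of at least 5 bases had a median log2 fold change of -0.31 for tumor pTreg against LN Treg, and the 35 with a shorter run -0.41. For tumor tTreg against LN Treg the medians were -0.20 and -0.28, and for tumor pTreg against tumor tTreg -0.11 and -0.11. The 13 mitochondrial members with such a run had higher medians than the 53 with a shorter run, at 0.18 and 0.02 for tumor pTreg and 0.35 and 0.18 for tumor tTreg against LN Treg. Of the 13, 7 were higher and 1 lower in tumor pTreg, and of the 53, 18 were higher and 14 lower. In tumor tTreg 9 of the 13 were higher and 2 lower, and 30 of the 53 higher and 12 lower. Over all genes 47.6% were higher and 39.8% lower in tumor pTreg, and 48.1% and 42.3% in tumor tTreg. These are descriptions of the windows found, with no test.

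The cytosolic class took a smaller share of the library in the tumor groups than in LN Treg, whereas the mitochondrial class did not. Cytosolic members held 7.04, 6.95, 7.71 and 7.31% of counts in the 4 LN Treg libraries, 5.40, 5.15 and 5.29% in tumor pTreg and 5.40, 5.62, 5.79, 6.05 and 5.88% in tumor tTreg. Mitochondrial members held 0.165, 0.163, 0.175 and 0.168% in LN Treg, 0.169, 0.162 and 0.165% in tumor pTreg and 0.181, 0.186, 0.189, 0.192 and 0.189% in tumor tTreg. All LN Treg libraries lie above all tumor libraries for the cytosolic class. For the mitochondrial class LN Treg and tumor pTreg overlap, and tumor tTreg lies above both. LN Treg replicate 3 and tumor tTreg replicate 4 were highest of their groups in both classes.

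The ratio of the classes within a library does not depend on how libraries are scaled to each other. Summed CPM of cytosolic members was 42.7, 42.5, 44.2 and 43.4 times that of mitochondrial members in LN Treg (43.2 ± 0.766, SD, n = 4). It was 32.0, 31.9 and 32.2 times in tumor pTreg (32.0 ± 0.150, n = 3) and 29.9, 30.2, 30.6, 31.6 and 31.1 times in tumor tTreg (30.7 ± 0.650, n = 5). The 3 groups do not overlap, with LN Treg far above the tumor groups and tumor pTreg just above tumor tTreg. The order is the same on summed FPKM (fragments scaled to gene length and library size), at 84.2, 59.8 and 57.3. Such a sum gives short genes more weight, and the part of gene length was not tested. Per 100 counts of the 18 T cell genes the cytosolic class stood at 1029 ± 46.6 counts in LN Treg, 3671 ± 128 for tumor pTreg and 31186 ± 1407 for tumor tTreg, and the mitochondrial class at 23.8 ± 0.666, 115 ± 3.84 and 1016 ± 31.6. On that scale both classes are lowest in LN Treg, which is highest for the cytosolic class by library share, while tumor tTreg lies above tumor pTreg on both scales.

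**Figure D1:**
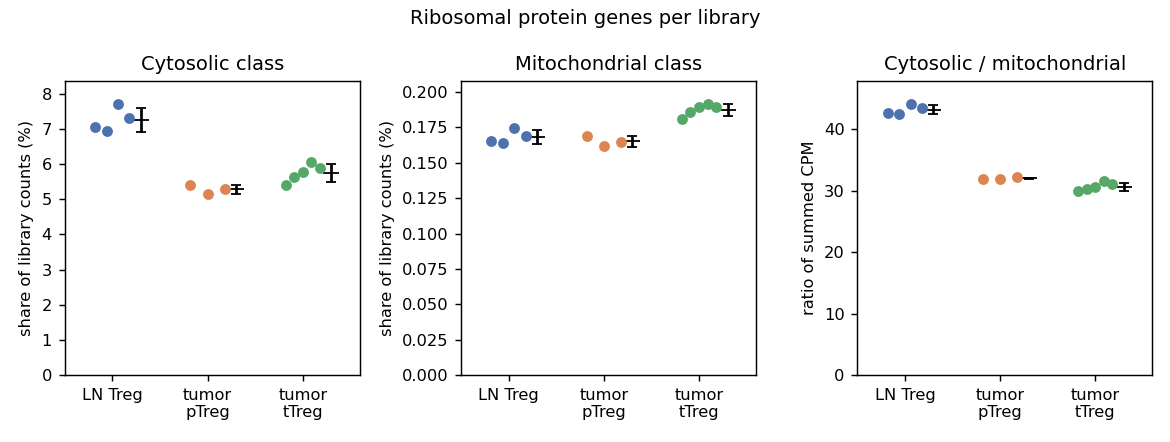
Share of library counts (%) held by the cytosolic and the mitochondrial class, and the ratio of their summed CPM, in each library (points) with mean ± SD (black bars) of LN Treg (n = 4), tumor pTreg (n = 3) and tumor tTreg (n = 5). The cytosolic share is 7.25% in LN Treg against 5.28 and 5.75% in the tumor groups (per T cell gene count LN Treg is lowest instead), and the ratio falls from 43.2 to 32.0 and 30.7.

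The subunits of 1 ribosome did not move by equal amounts. Cytosolic large-subunit members had 1.36 ± 0.0126 times the summed CPM of small-subunit members in LN Treg, 1.46 ± 0.00721 for tumor pTreg and 1.44 ± 0.0127 for tumor tTreg. The ranges of LN Treg (1.34 to 1.37) and of the tumor groups (1.42 to 1.47) do not overlap. For the mitochondrial ribosome the same ratio was 1.91 ± 0.0311, 2.0 ± 0.0373 and 2.03 ± 0.0453, where the LN Treg range ends at 1.94 and the tumor ranges start at 1.96. These ratios are within a library and carry no test.

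Levels between genes are compared per length, in FPKM. The median cytosolic member read 2004 FPKM in LN Treg, 1517 for tumor pTreg and 1623 for tumor tTreg, and the median mitochondrial member 24.3, 25.6 and 26.8 FPKM. The highest cytosolic members by mean FPKM were Rps27 and Rps24, at 11722 ± 1484 and 7372 ± 298 FPKM in LN Treg. The level of Rps27 rests on an effective length of only 57.0 bases implied by the table, which inflates its FPKM. The highest mitochondrial members were Mrpl52, Mrps21 and Mrpl33, at 152 ± 10.4, 129 ± 11.4 and 103 ± 12.6 FPKM in LN Treg. Short implied lengths are common among these (120 bases for Mrpl52 and 150 for Mrps21). Across members the log2 fold change followed neither implied length nor level, with Spearman coefficients between -0.06 and 0.11 over 83 or 75 genes of the same libraries, given as a description.

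Names near the limit of 1 CPM were paralogs. Just inside it was Rps4l, a paralog of the small-subunit gene Rps4x, at 1.67 ± 0.32 CPM in LN Treg, 1.20 ± 0.356 for tumor pTreg and 0.799 ± 0.275 for tumor tTreg, the only member below 1 CPM in some group. Just outside was Rpl39l, at 0.694, 0.239 and 0.0986 CPM. Rpl3l, a paralog of Rpl3 known from heart and skeletal muscle, reached 0.0737 CPM in tumor pTreg, and Rpl32l 0.0328 CPM in tumor tTreg. Rpl10l, a paralog of Rpl10 known from testis, and Rps12l1 were at 0 counts in all 12 libraries. All 158 members passed the filter on low counts and were tested, as was Rpl39l.

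How do ribosomal protein genes of tumor pTreg differ from those of LN Treg? By counts of the whole library most cytosolic genes were lower, though all 83 were higher when libraries were scaled to T cell gene counts. Of 83, 64 were lower and 8 higher (edgeR quasi-likelihood F test, Benjamini-Hochberg adjusted p below 0.05 over 15705 genes), beside 39.8% of all genes tested that were lower and 47.6% that were higher. Either call was made for 87.5% of all genes, so a call alone says little here. The cytosolic share of lower calls was 77.1%. The median log2 fold change was -0.38 for cytosolic members and 0.12 for all genes tested. Mitochondrial members split, with 29 higher (38.7%) and 18 lower (24.0%) of 75 and a median log2 fold change of 0.03, which was -0.08 when library totals alone were used and -0.003 without LN Treg replicate 2. Scaled to T cell gene counts, all 75 were higher. On that scale 14357 of all 15705 genes tested were higher and 632 lower, so it says little about either class in particular.

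The changes were small beside those of other genes. The interquartile range of log2 fold changes was 0.488 for cytosolic and 0.520 for mitochondrial members, against 2.17 for all genes tested. At least 2-fold lower were 2 cytosolic members (Rps27 and Rpl34), where 17.7% of all genes were, and the most lowered mitochondrial member, Mrpl24, was 1.73-fold lower. At least 2-fold higher were 1 cytosolic member (Rps27l) and 3 mitochondrial ones (Mrpl16, Mrpl17 and Mrpl13), where 30.0% of all genes were. Libraries of the compared groups did not overlap in CPM for 68 cytosolic members lower and 6 higher, and for 28 mitochondrial members lower and 25 higher. CPM is scaled to library totals alone, whereas the calls use TMM factors between libraries. A member without overlap need therefore not be called, and only 18 mitochondrial members were called lower. Over all genes these shares were 42.3% lower and 43.6% higher, 85.9% together.

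In tumor tTreg against LN Treg, which shares the LN Treg libraries with the comparison above, 56 of 83 cytosolic members were lower and 17 higher. All 83 were again higher by T cell gene counts, as were 15132 of all 15705 genes tested, with 225 lower. By counts of the whole library 42.3% of all genes were lower, 48.1% higher and 90.3% called either way. The median log2 fold change was -0.26 for the cytosolic class, where that of all genes was 0.10. Of 75 mitochondrial members 45 were higher (60.0%) and 15 lower (20.0%), with a median of 0.24. At least 2-fold higher were 1 cytosolic and 6 mitochondrial members, beside 31.0% of all genes, and at least 2-fold lower 3 cytosolic members (Rpl34, Rps27 and Rpl3), beside 22.5%. No overlap in CPM was found for 53 cytosolic members lower and 9 higher, and for 16 mitochondrial members lower and 34 higher. The shares over all genes were 42.0% lower and 43.2% higher, 85.2% together.

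By subunit, 28 of 34 small-subunit and 36 of 49 large-subunit cytosolic members were lower in tumor pTreg than in LN Treg, with medians of -0.46 and -0.27 on the log2 scale. In tumor tTreg it was 26 of 34 and 30 of 49, with medians of -0.39 and -0.25. The small-subunit shares of lower calls are 82.4% in tumor pTreg and 76.5% in tumor tTreg. Those of the large subunit are 73.5% and 61.2%, beside 39.8% and 42.3% of all genes. For the 49 of the large mitochondrial subunit, tumor pTreg had 21 higher with 11 lower calls, and tumor tTreg 31 higher with 10 lower. For the 26 of the small subunit the counts were 8 higher with 7 lower, and 14 higher with 5 lower. The large-subunit shares of higher calls are 42.9% and 63.3% and the small-subunit ones 30.8% and 53.8%, beside 47.6% and 48.1% of all genes. Of these, 42.9% and 53.8% lie near the shares of all genes, so the counts behind them say little. Lower calls were 22.4% and 20.4% of the large and 26.9% and 19.2% of the small subunit, beside 39.8% and 42.3% of all genes. These directions are of library shares, and all members of each subunit, like nearly all genes, were higher when scaled to T cell gene counts.

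**Figure D2:**
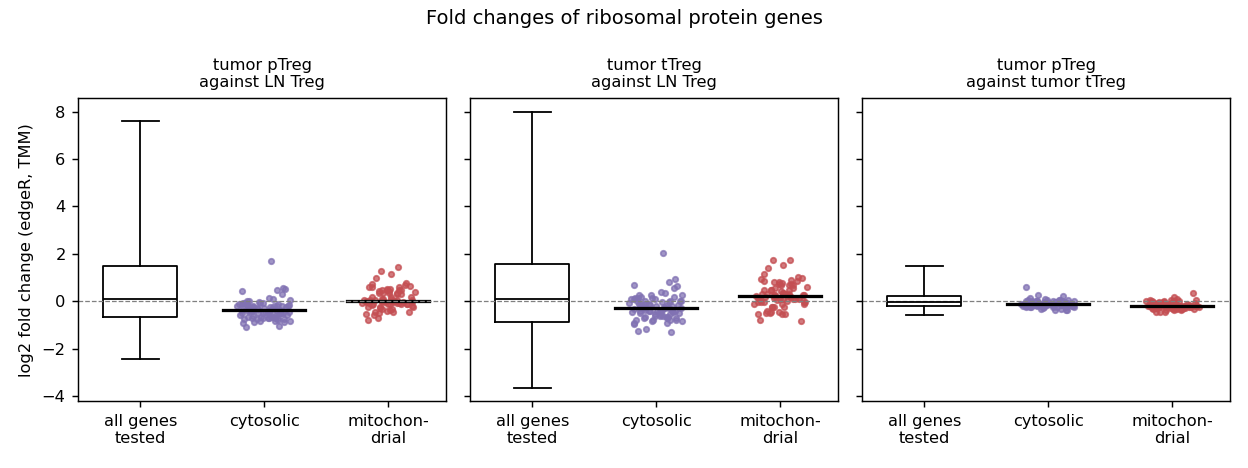
log2 fold change of each cytosolic and mitochondrial member (points; black line, median) beside all 15705 genes tested (box, quartiles and median; whiskers, 5th to 95th percentile) in the 3 comparisons, with TMM scaling. Cytosolic medians lie at -0.38 and -0.26 against LN Treg, mitochondrial ones at 0.03 and 0.24, and against tumor tTreg both lie below 0 in tumor pTreg. Scaled to T cell gene counts, the medians of both classes against LN Treg are above 0, as are those of all genes (2.3 and 5.26).

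Do both kinds of tumor Treg libraries differ from each other? Few members were higher in tumor pTreg and many were lower, in both classes. Of 83 cytosolic members 42 were lower and 4 higher, and of 75 mitochondrial members 44 were lower and 2 higher. Over all genes 25.3% were lower, 26.8% higher and 52.1% called either way. The members' shares of lower calls were 50.6% and 58.7%. Medians were -0.12 for the cytosolic and -0.20 for the mitochondrial class, beside -0.01 for all genes. With the scaling to T cell gene counts all 158 were lower in tumor pTreg, as were 15128 of all 15705 genes tested.

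These differences between the tumor groups were all under 2-fold for members, where 6.56% of all genes were at least 2-fold higher and 1.41% at least 2-fold lower. Libraries did not overlap in CPM for 34 cytosolic members lower and 3 higher and for 35 mitochondrial members lower and 2 higher, beside 24.0% and 24.4% of all genes. The 4 cytosolic members higher in tumor pTreg were Rpl3, Rpl34, Rps27 and Rpl13a. The number of higher cytosolic members was 2 without tumor pTreg replicate 3, and that of mitochondrial members was 0 without tumor pTreg replicate 1.

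Among small-subunit genes of the cytosol, Rps27 fell most and its paralog Rps27l, known as a target of the tumor suppressor p53, rose most by counts of the whole library; scaled to T cell gene counts both were higher than in LN Treg. Rps27 read 656, 588, 738 and 698 CPM in LN Treg, 298, 288 and 288 in tumor pTreg and 253, 257, 266, 289 and 267 in tumor tTreg. Every tumor library lies below every LN Treg library, and the tumor groups overlap. The log2 fold change was -1.10 (SE 0.0528, adjusted p = 1.58e-17, edgeR) in tumor pTreg and -1.23 (SE 0.0452, adjusted p = 1.47e-20) in tumor tTreg against LN Treg. Between the tumor groups it was 0.13 (adjusted p = 0.0269), a call that was lost with RLE or DESeq2 scaling and without any of 4 tumor libraries (tumor pTreg replicates 1 and 3, tumor tTreg replicates 1 and 2), where log2 fold changes were 0.09 to 0.14. Reads of Rps27 may be shared with the near-identical retrogene Rps27rt, which fell alongside it from 14.2 ± 1.12 to 5.94 ± 0.203 and 5.68 ± 1.17 CPM, so the split between both is uncertain.

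Rps27l read 13.4, 14.9, 16.1 and 15.4 CPM in LN Treg, 44.4, 45.3 and 44.3 in tumor pTreg and 59.0, 53.4, 56.9, 58.4 and 57.4 in tumor tTreg. No groups overlap. It was 3.21-fold higher in tumor pTreg (adjusted p = 1.71e-21, edgeR) and 4.08-fold higher in tumor tTreg (adjusted p = 4.15e-25) than in LN Treg, and between the tumor groups it was 1.27-fold lower in the pTreg libraries (adjusted p = 1.07e-07). On the count scale there were 0.0224 ± 0.00206 counts of Rps27l per count of Rps27 in LN Treg, 0.153 ± 0.00405 for tumor pTreg and 0.214 ± 0.0119 for tumor tTreg. This ratio within a library does not depend on the scaling between libraries.

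Rps26, whose protein lies where messenger RNA leaves the ribosome, was the other small-subunit riser. Its CPM was 525, 509, 604 and 573 in LN Treg, 772, 739 and 773 in tumor pTreg and 940, 958, 915, 1077 and 1055 in tumor tTreg. The groups are ordered without overlap. The log2 fold changes against LN Treg were 0.57 (adjusted p = 6.08e-11, edgeR) and 0.94 (adjusted p = 3.44e-17), and that between the tumor groups -0.37 (adjusted p = 4.56e-07). Rps24, one of the most abundant members per length, went from 1686 ± 76.5 CPM to 1066 ± 33.5 and 1130 ± 62.8, log2 fold changes of -0.56 (adjusted p = 1.35e-12) and -0.48 (adjusted p = 1.17e-12). Rps4x, encoded on the X chromosome, was lower by 0.29 and 0.12 on the log2 scale against LN Treg (2096 ± 36.5, 1597 ± 57.7 and 1801 ± 86.7 CPM; adjusted p = 1.24e-07 and 0.00173). The paralog Rps4l was lower in tumor tTreg (log2 fold change -0.97, SE 0.253, adjusted p = 0.000857), while -0.38 in tumor pTreg did not pass (adjusted p = 0.189); its few counts may include reads of Rps4x. Scaled to T cell gene counts Rps24 and Rps4x were higher in both tumor groups and Rps4l in tumor tTreg.

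Among large-subunit genes, Rpl34 and Rpl3 were lowered most in tumor tTreg by library counts, while in tumor pTreg Rpl34 was followed by Rplp1, given with the stalk. Rpl34 and Rpl3 were higher when libraries were scaled to T cell gene counts. Rpl34 read 410, 376, 467 and 434 CPM in LN Treg, 191, 184 and 194 in tumor pTreg and 152, 154, 159, 171 and 169 in tumor tTreg. Its log2 fold changes were -1.05 (SE 0.0521, adjusted p = 3.63e-17, edgeR) and -1.29 (SE 0.0450, adjusted p = 3.99e-21) against LN Treg and 0.25 (adjusted p = 0.000173) for tumor pTreg against tumor tTreg. Rpl3, which reaches toward the peptidyl transferase centre, read 1975, 2001, 2017 and 1971 CPM in LN Treg, 1032, 1000 and 1016 in tumor pTreg and 828, 834, 872, 839 and 828 in tumor tTreg. The spread of Rpl3 within groups was small, and no groups overlap for either gene. Rpl3 log2 fold changes were -0.87 (SE 0.0308, adjusted p = 9.95e-21), -1.15 (SE 0.0265, adjusted p = 1.44e-25) and 0.28 (SE 0.0289, adjusted p = 2.8e-09).

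Genes of the stalk diverged. Rplp1 and Rplp2 encode its acidic proteins, and Rplp0 the base that anchors them. Rplp1 read 828, 892, 980 and 937 CPM in LN Treg, 486, 425 and 443 in tumor pTreg and 445, 423, 458, 485 and 450 in tumor tTreg, log2 fold changes of -0.91 (adjusted p = 3.61e-16, edgeR) and -0.91 (adjusted p = 5.62e-18). Rplp0 read 1544, 1455, 1617 and 1583 CPM in LN Treg, 2067, 2013 and 2041 in tumor pTreg and 2161, 2288, 2390, 2347 and 2233 in tumor tTreg, log2 fold changes of 0.50 (adjusted p = 9.99e-13) and 0.66 (adjusted p = 9.89e-17). Rplp1 is lower in every tumor library and Rplp0 higher in every one, unless libraries are scaled to T cell gene counts, where Rplp1 too was higher (log2 fold changes of 1.28 and 4.25). Rplp2, chosen after its values were seen to complete the stalk, was at 534 ± 58.8, 358 ± 10.7 and 379 ± 24.8 CPM (log2 fold changes -0.47 and -0.40, adjusted p = 1.1e-08 and 1.63e-08).

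Rpl41, which encodes the smallest ribosomal protein, and Rpl10, whose protein joins late and is needed for the large subunit to mature, also rose. Rpl41 read 299, 308, 363 and 334 CPM in LN Treg, 434, 425 and 407 in tumor pTreg and 520, 509, 511, 596 and 550 in tumor tTreg. It was 1.39-fold (adjusted p = 2.49e-09, edgeR) and 1.76-fold (adjusted p = 9.14e-16) higher than in LN Treg. Rpl10 read 1129 ± 50.6, 1426 ± 46.2 and 1690 ± 78.4 CPM, 1.36-fold and 1.60-fold higher (adjusted p = 6.5e-11 and 1.95e-16). Neither gene overlapped between groups. Both were higher on the scale of T cell gene counts too, which says little, because 14357 and 15132 of all 15705 genes tested were higher there.

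Rpl15 was the 1 cytosolic member called in opposite directions in the tumor groups, and it is named after its values were seen. It read 748, 758, 801 and 754 CPM in LN Treg, 681, 653 and 648 in tumor pTreg and 754, 731, 797, 823 and 792 in tumor tTreg. The log2 fold changes were -0.11 (adjusted p = 0.0104, edgeR) and 0.12 (adjusted p = 0.00101) against LN Treg, and that between the tumor groups was -0.23 (adjusted p = 4.32e-06). The tumor pTreg libraries lie below all others, while LN Treg and tumor tTreg overlap. The higher call in tumor tTreg was lost with library totals alone (0.03, adjusted p = 0.425), and the lower call in tumor pTreg without tumor pTreg replicate 3 (-0.09, adjusted p = 0.0623). By T cell gene counts Rpl15 was higher in both (2.08 and 5.28).

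Other paralogs were read in the same way. Rpl22, whose loss is known to block the development of alpha-beta T cells, read 301 ± 22.8, 211 ± 1.11 and 212 ± 11.7 CPM (log2 fold changes -0.41 and -0.41 against LN Treg, adjusted p = 4.21e-09 and 2.35e-10, edgeR). Its paralog Rpl22l1 read 156 ± 8.62, 128 ± 0.929 and 144 ± 7.47 CPM, lower in tumor pTreg by 0.18 (adjusted p = 0.000271) and at -0.02 in tumor tTreg (adjusted p = 0.613). Counts of Rpl22l1 per count of Rpl22 went from 0.517 ± 0.0142 to 0.606 ± 0.00609 and 0.677 ± 0.0162, with no overlap between groups. Rpl7 read 1731 ± 27.2, 1743 ± 70.6 and 2062 ± 69.5 CPM and Rpl7l1 63.2 ± 0.988, 73.4 ± 2.19 and 87.3 ± 4.48. The call of Rpl7 in tumor pTreg (log2 fold change 0.11, adjusted p = 0.00452) was lost with library totals alone (0.01) and with the filter at a mean of 5 CPM (0.07). Rpl39, which lines the exit tunnel, went from 278 ± 33.5 to 166 ± 0.927 and 168 ± 11.3 CPM (log2 fold changes -0.64 and -0.63, adjusted p = 8.47e-11 and 4.47e-12). Its paralog Rpl39l, which is no member because it stays below 1 CPM, fell by more, with log2 fold changes of -1.41 (SE 0.412) and -2.64 (SE 0.424; adjusted p = 0.00255 and 1.58e-06, edgeR) on few counts. By T cell gene counts these were 0.74 (adjusted p = 0.129) and 2.41 (adjusted p = 0.000424). Rpl22, Rpl22l1 and Rpl39 were all higher in the tumor groups on the scale of T cell gene counts.

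**Figure D3:**
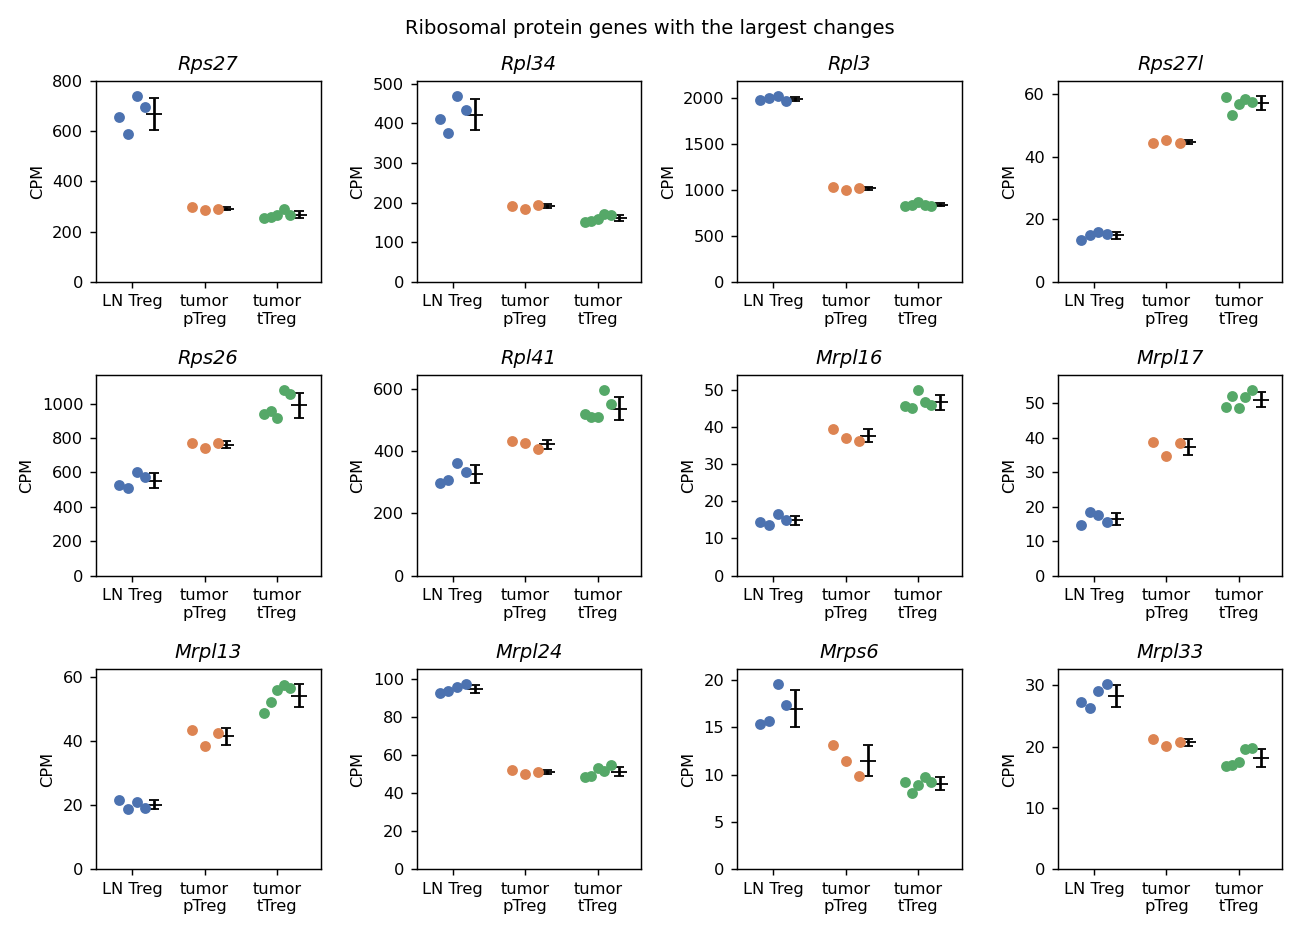
CPM in each library (points) with mean ± SD (black bars) of 12 members, 6 cytosolic and 6 mitochondrial, in LN Treg, tumor pTreg and tumor tTreg; each panel has its own axis from 0. Rps27, Rpl34, Rpl3, Mrpl24, Mrps6 and Mrpl33 are highest in LN Treg, but not when libraries are scaled to T cell gene counts, and Rps27l, Rps26, Rpl41, Mrpl16, Mrpl17 and Mrpl13 are highest in tumor tTreg.

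Among genes of the large mitochondrial subunit, Mrpl16, Mrpl17 and Mrpl13, all counterparts of bacterial ribosomal proteins, rose most. Mrpl16 read 14.3, 13.6, 16.6 and 14.9 CPM in LN Treg, 39.6, 37.1 and 36.2 in tumor pTreg and 45.5, 45.0, 49.9, 46.7 and 45.8 in tumor tTreg. It was 2.72-fold (adjusted p = 1.06e-18, edgeR) and 3.35-fold (adjusted p = 2.55e-22) higher than in LN Treg, and 1.23-fold lower in tumor pTreg than in tTreg of the tumor (adjusted p = 8e-06). Mrpl17 read 14.7, 18.4, 17.5 and 15.5 CPM in LN Treg, 38.7, 34.6 and 38.5 in tumor pTreg and 48.9, 52.2, 48.7, 51.9 and 53.8 in tumor tTreg. Its folds were 2.43 (adjusted p = 9.33e-17) and 3.32 (adjusted p = 1.1e-21) against LN Treg, and it was 1.36-fold lower in pTreg than in tTreg of the tumor (adjusted p = 3.97e-08). For both genes the libraries order as LN Treg, tumor pTreg and tumor tTreg with no overlap.

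Mrpl13 read 21.8, 19, 21.1 and 19.2 CPM in LN Treg, 43.5, 38.7 and 42.5 in tumor pTreg and 49.0, 52.3, 56.1, 57.7 and 56.6 in tumor tTreg, 2.20-fold (adjusted p = 1.59e-15, edgeR) and 2.86-fold (adjusted p = 3.26e-20) higher than in LN Treg. The same order without overlap held. Mrpl34 read 6.68 ± 1.53, 10.3 ± 0.894 and 14.1 ± 1.29 CPM, and Mrpl19 26.1 ± 0.664, 23.3 ± 2.06 and 30.4 ± 1.08. Both had lower levels in tumor pTreg than in its tTreg counterpart, by 0.45 (adjusted p = 0.000556) and 0.38 (adjusted p = 1.62e-06) on the log2 scale. Against LN Treg Mrpl19 was higher in tumor tTreg (0.32, adjusted p = 1.43e-06) and at -0.06 in tumor pTreg (adjusted p = 0.35), where library totals alone gave a lower call (-0.16).

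Mrpl24 was the most lowered mitochondrial member in tumor pTreg by library counts. It read 92.5, 93.8, 95.4 and 97.2 CPM in LN Treg, 52.0, 49.99 and 50.9 in tumor pTreg and 48.6, 49.0, 53.1, 51.5 and 54.5 in tumor tTreg. The log2 fold changes were -0.79 (SE 0.0420, adjusted p = 1.77e-16, edgeR) and -0.79 (SE 0.0362, adjusted p = 3.81e-18), and between the tumor groups, which overlap, 0.00 (adjusted p = 0.972). Mrpl58, a peptidyl-tRNA hydrolase that has become part of the large subunit and frees stalled ribosomes, went from 25.2 ± 2.20 to 14.6 ± 1.16 and 16.9 ± 1.35 CPM (-0.68 and -0.48, adjusted p = 5.71e-09 and 1.24e-07). Its lower call in tumor pTreg against tumor tTreg (-0.20, adjusted p = 0.0386) was lost without tumor pTreg replicate 2 (-0.13), tumor tTreg replicate 2 (-0.18) or tumor tTreg replicate 3 (-0.16).

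Mrpl33 read 27.2, 26.3, 29.1 and 30.2 CPM in LN Treg, 21.3, 20.1 and 20.7 in tumor pTreg and 16.9, 16.9, 17.5, 19.7 and 19.8 in tumor tTreg. It was lower than in LN Treg by 0.34 (adjusted p = 2.97e-05, edgeR) and 0.54 (adjusted p = 1.72e-09) on the log2 scale. It was higher in tumor pTreg than in tumor tTreg by 0.20 (adjusted p = 0.0153), which did not pass without tumor pTreg replicate 1 (0.18) or with RLE or DESeq2 (0.15). Mrpl52 went from 18.2 ± 2.04 to 12.4 ± 0.862 and 12.8 ± 1.01 CPM (-0.45 and -0.41, adjusted p = 2.11e-05 and 8.6e-06). Mrpl24, Mrpl58, Mrpl33 and Mrpl52 were higher than in LN Treg on the scale of T cell gene counts.

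Of the small mitochondrial subunit, Mrps6 was lowest in tumor tTreg. It read 15.4, 15.6, 19.6 and 17.4 CPM in LN Treg, 13.1, 11.4 and 9.85 in tumor pTreg and 9.25, 8.03, 8.91, 9.80 and 9.28 in tumor tTreg. The log2 fold changes were -0.47 (adjusted p = 4.53e-05, edgeR), -0.81 (adjusted p = 5.67e-10) and, between the tumor groups, 0.35 (adjusted p = 0.00364). The last call was lost without tumor pTreg replicate 1 (0.24), the highest of its group. Mrps26 went from 24.96 ± 2.32 to 15.7 ± 0.944 and 16.4 ± 1.06 CPM (-0.57 and -0.51, adjusted p = 3.96e-08 and 1.82e-08). Both were higher than in LN Treg on the scale of T cell gene counts. Mrps21 read 19.1 ± 2.81, 19.1 ± 1.13 and 21.8 ± 1.38 CPM, higher in tumor tTreg than in LN Treg by 0.28 (adjusted p = 0.000759) and at 0.10 in tumor pTreg (adjusted p = 0.249).

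Ribosomal genes whose names lie outside the pattern were read beside the members. Of 5 cytosolic ones 4 were lower in tumor pTreg than in LN Treg and 3 in tumor tTreg (80% and 60%, beside 39.8% and 42.3% of all genes). Rpsa, the small-subunit protein also known as a laminin receptor, went from 2625 ± 72 to 1385 ± 33.3 and 1274 ± 32.6 CPM (log2 fold changes -0.82 and -0.95, adjusted p = 4.35e-19 and 1.93e-22, edgeR). Fau, which encodes a ribosomal protein fused to a ubiquitin-like protein, went from 538 ± 34.4 to 428 ± 16.1 and 424 ± 15 CPM. Fau passed in both comparisons (adjusted p = 1.16e-05 and 2.88e-07, edgeR). Rpl36al, a paralog of a large-subunit gene, read 110 ± 7.12, 97.8 ± 8.26 and 101 ± 8.17 CPM with no call. As with the members, the direction is of library shares.

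Of 8 mitochondrial ones, 3 were higher and 4 lower in tumor pTreg (37.5% and 50%), and 4 higher and 3 lower in tumor tTreg (50% and 37.5%). Over all genes 47.6% and 48.1% were higher and 39.8% and 42.3% lower, so with 8 genes these counts say little. Mrps18a, Mrps18b and Mrps18c, which encode variants of 1 bacterial protein, went apart. Mrps18b rose from 14.7 ± 1.10 to 25 ± 1.14 and 31.4 ± 2.61 CPM and Mrps18a from 16.5 ± 1.92 to 20.1 ± 1.05 and 26.2 ± 0.963, while Mrps18c went from 17.0 ± 1.64 to 12.9 ± 0.174 and 13.4 ± 1.45. Dap3, a small-subunit protein first named for its link to cell death, went from 79.0 ± 2.46 to 47.9 ± 0.603 and 56.2 ± 3.50 CPM (adjusted p = 4.91e-13 and 2.02e-10). Aurkaip1 went from 34.1 ± 2.02 to 24.3 ± 0.819 and 25.2 ± 1.67 CPM, and Chchd1 from 13.7 ± 0.396 to 15 ± 1.05 and 17.3 ± 0.962. Ptcd3 (68.6 ± 1.78, 50.9 ± 2.16 and 65.0 ± 1.65 CPM) was lower in tumor pTreg alone by call, and its difference between the tumor groups passed the test (-0.35, adjusted p = 8.35e-09). The lower calls of Mrps18c, Dap3, Aurkaip1 and Ptcd3 against LN Treg turn to higher on the scale of T cell gene counts. Gadd45gip1 read 14.1 ± 0.818, 12.2 ± 0.258 and 16.7 ± 0.491 CPM, so that pTreg lay below tTreg of the tumor by 0.44 (adjusted p = 1.85e-06).

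Genes that build ribosomes were looked at next, from a list of 37 factors of ribosome biogenesis. Against LN Treg 19 were higher and 11 lower in tumor pTreg, and 27 higher and 9 lower in tumor tTreg, with medians of 0.12 and 0.34 where all genes had 0.12 and 0.10. Of all genes 47.6% were higher and 39.8% lower in tumor pTreg, and 48.1% higher and 42.3% lower in tumor tTreg, so the 51.4% of the list that were higher in tumor pTreg lie near the share of all genes, while in tumor tTreg the list stood at 73.0%. Between the tumor groups 27 were lower and 2 higher in tumor pTreg (median -0.21), beside 25.3% of all genes lower and 26.8% higher. Nhp2, of the small nucleolar particles that guide pseudouridylation, rose from 23.4 ± 0.956 CPM to 55.4 ± 3.05 and 76.9 ± 5.65, 2.54-fold and 3.51-fold (adjusted p = 1.05e-17 and 1.44e-22, edgeR). Tcof1, which encodes treacle, a factor for ribosomal RNA transcription, was 2.25-fold and 2.41-fold lower (198 ± 2.95, 81.7 ± 3.00 and 76.6 ± 4.37 CPM; adjusted p = 9.84e-22 and 2.02e-24). Of 36 translation factors of the cytosol 18 were higher in each tumor group than in LN Treg, and 12 and 13 lower, shares (50% higher, 33.3% and 36.1% lower) near those of all genes. Eef1d, a subunit of the exchange factor of elongation, was 2.92-fold and 4.93-fold lower (175 ± 6.28, 55.9 ± 1.51 and 33.2 ± 1.36 CPM; adjusted p = 1.35e-24 and 4.14e-30). Eif4a2, a helicase of initiation, was 2.26-fold and 3.11-fold lower (1078 ± 16.7, 444 ± 6.12 and 324 ± 9.65 CPM; adjusted p = 4.26e-24 and 1.81e-29). Between the tumor groups 19 of the 36 (52.8%) were lower and 8 (22.2%) higher in tumor pTreg.

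The mitochondrial lists were mixed. Of 17 mitochondrial translation genes 8 were higher and 8 lower in tumor pTreg (47.1% each, beside 47.6% and 39.8% of all genes), and 9 higher and 8 lower in tumor tTreg (52.9% and 47.1%, beside 48.1% and 42.3%). Tars2, the mitochondrial threonyl-tRNA synthetase, was 3.33-fold and 3.21-fold lower (120 ± 4.57, 33.6 ± 2.90 and 35.0 ± 1.08 CPM; adjusted p = 6.49e-24 and 1.23e-25, edgeR), while Iars2, its isoleucyl counterpart, was 1.79-fold and 2.0-fold higher (76.7 ± 1.53, 127 ± 1.71 and 143 ± 4.28 CPM; adjusted p = 1.58e-19 and 7.74e-23). Of 20 assembly factors of the mitochondrial ribosome 5 were higher and 10 lower (25% and 50%), and 8 higher and 10 lower (40% and 50%). Fastkd2, which binds the large mitochondrial ribosomal RNA, read 17.9 ± 0.586, 29.4 ± 0.285 and 39.2 ± 0.907 CPM, and Dhx30, a helicase of assembly, 107 ± 4.19, 51.5 ± 2.15 and 49.9 ± 3.15 CPM. Fastkd2 was higher and Dhx30 lower in both tumor groups than in LN Treg (adjusted p = 1.42e-14 and 1.39e-20, and 1.4e-17 and 7.07e-20). In tumor pTreg against tumor tTreg 9 of the 17 and 7 of the 20 were lower (52.9% and 35%, beside 25.3% of all genes) and 2 of each higher (11.8% and 10%, beside 26.8%). Transcripts of the mitochondrial genome itself held 4.0 ± 0.0746% of counts in LN Treg, 4.46 ± 0.178% for tumor pTreg and 5.11 ± 0.198% for tumor tTreg.

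Of 12 genes of the mTOR and MYC pathways, which set ribosomal protein synthesis, 4 were higher (33.3%) and 6 lower (50%) in each tumor group than in LN Treg, and 4 higher (33.3%) and 3 lower (25%) when tumor pTreg was set against tumor tTreg. Over all genes 47.6% and 48.1% were higher and 39.8% and 42.3% lower against LN Treg, and 26.8% higher and 25.3% lower between the tumor groups. Eif4ebp1 and Eif4ebp2, inhibitors of cap-dependent initiation that mTOR switches off, went apart. Eif4ebp1 read 4.34 ± 0.466, 25.9 ± 1.47 and 31.6 ± 0.966 CPM, 6.38-fold and 7.74-fold higher than in LN Treg (adjusted p = 1.7e-22 and 4.96e-25, edgeR). Eif4ebp2 read 353 ± 18.0, 154 ± 4.36 and 136 ± 7.52 CPM, 2.12-fold and 2.42-fold lower (adjusted p = 1.65e-20 and 5.23e-24). Lower calls in all 5 lists are of library shares. By T cell gene counts 95.8% and 98.5% of all calls against LN Treg were higher, those of Tcof1, Eef1d, Eif4a2, Tars2, Dhx30 and Eif4ebp2 among them.

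**Figure D4:**
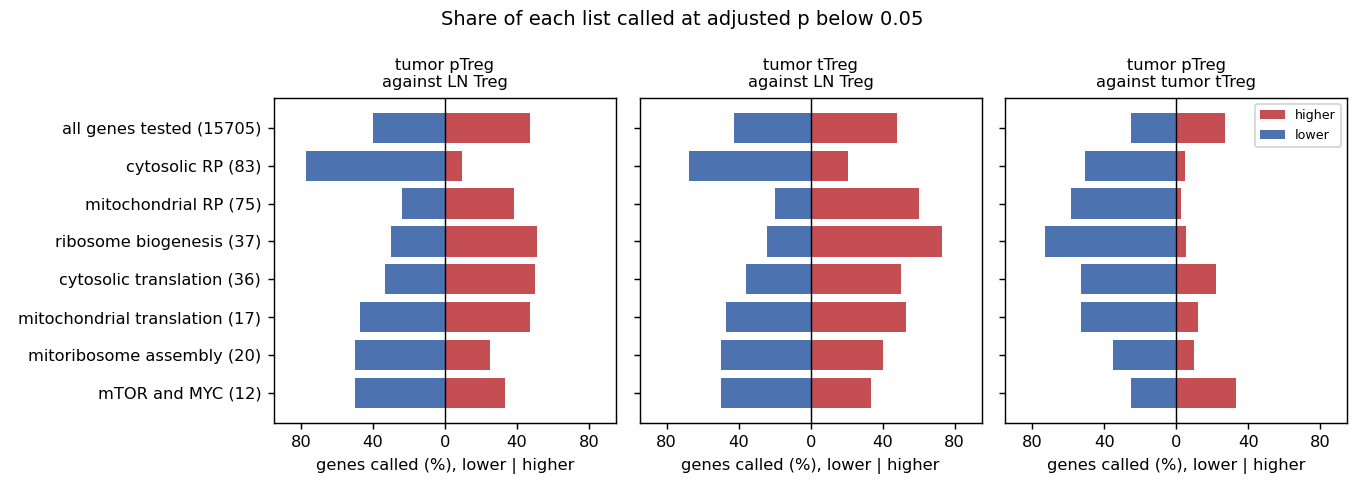
Percent of each list called lower (blue, to the left) and higher (red, to the right) at an adjusted p below 0.05 in the 3 comparisons; the number of genes tested is in parentheses. Cytosolic members stand at 77.1 and 67.5% lower against LN Treg by library share, where all genes stand at 39.8 and 42.3%, and ribosome biogenesis genes at 73.0% higher in tumor tTreg. Scaled to T cell gene counts, 0% of cytosolic members are lower, and only 632 and 225 of all 15705 genes tested are.

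Processed pseudogenes of ribosomal protein genes resemble their parents, and the counting could divide reads among them. The 325 rows named as such pseudogenes summed to 1093 ± 47.6 CPM in LN Treg, 1131 ± 58.7 for tumor pTreg and 1449 ± 73.4 for tumor tTreg, against 72534 ± 3434, 52826 ± 1277 and 57473 ± 2451 CPM for the cytosolic members. Single members with close copies are therefore uncertain. The fall of the class by library share is larger than the sum of these 325 rows. Copies under other names were not counted, and the part of shared reads was not tested.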

How the data were processed

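Bulk RNA of 12 mouse libraries was analysed from the deposited expected counts and the deposited FPKM values, each in 1 table. Per the submitters' processing notes STAR 2.7.11a, RSEM 1.3.3 and DESeq2 were used on GRCm38/mm10; the annotation behind the gene rows was not given in these sources. Expected counts held whole numbers and were used as deposited. FPKM served to compare levels between genes and to imply effective lengths.

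CPM values are counts over the library's total. Of 27279 genes with any count 15705 passed filterByExpr. Tests used R 4.3.3 and edgeR 4.0.16 (quasi-likelihood F test, TMM factors, all 12 libraries in 1 fit, group as the only factor), with Benjamini-Hochberg adjustment over all genes within a comparison and calls at an adjusted p below 0.05. The fit was tested on simulated data in which a small set of genes changed in tumor pTreg alone. Most genes differ in the real libraries, so that run does not test the scaling between them. Alternatives were RLE factors, library totals, scaling to the counts of the 18 T cell genes, DESeq2 1.42.0, testing without the filter or with a minimum mean of 5 CPM, a block for the replicate number, and leaving out single libraries.

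Members and lists were chosen with earlier results of these data known. Named genes are, per class and comparison, the 3 largest called changes in each direction with at least 10 CPM, the 3 highest by FPKM, paralogs, members beside the limit of 1 CPM, 2 genes per pathway list by smallest p, and ribosomal genes outside the pattern. Start sequences are from RefSeq, GRCm38.p6. Some genes that meet this rule and some start sequences are not reported here.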

Additional observations from a re-analysis of the deposited data

Results flagged for a closer look

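Among 66 groups of 4 or 5 values of named members, 3 held a library far from the others, where chance alone marks about 1 in 20. Rps24 in LN Treg replicate 3 read 1800 CPM, with the other 3 libraries at 1640 to 1653. Rpl3 in tumor tTreg replicate 3 read 871.6 CPM, with the others at 827.7 to 839.3. Mrps21 in tumor tTreg replicate 4 read 24.21 CPM, with the others at 20.82 to 21.59. LN Treg replicate 3 and tumor tTreg replicate 4 also had the highest share of both ribosomal classes in their groups. No explanation was tested.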

How the results depend on the processing

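Counts of calls and medians kept their direction with RLE factors, DESeq2, other filters and the replicate block, with the exceptions given here, and no called member was called in the opposite direction under these settings or with library totals. Higher calls in tumor pTreg against tumor tTreg were few and unsteady: the cytosolic count of 4 became 2 with RLE factors, 2 with DESeq2 and 7 with the replicate block, and the mitochondrial count of 2 became 1 with RLE factors and 1 with DESeq2. Leaving out 1 library at a time gave 2 to 5 (cytosolic) and 0 to 2 (mitochondrial), and elsewhere 7 to 8, 15 to 18, 60 to 68, 54 to 57 and 32 to 50 (cytosolic: higher in tumor pTreg and tumor tTreg, lower in both against LN Treg, lower in tumor pTreg against tumor tTreg) and 26 to 29, 42 to 47, 16 to 18, 13 to 17 and 31 to 47 (mitochondrial, in the same order). The mitochondrial median for tumor pTreg against LN Treg ran from -0.00321 to 0.0442, below 0 only without LN Treg replicate 2. With library totals only, cytosolic medians were -0.482 (tumor pTreg) and -0.3606 (tumor tTreg) against LN Treg, mitochondrial ones -0.0763 and 0.144, and 32 mitochondrial members were lower in tumor pTreg, because TMM factors move the median of all genes by about 0.1.

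Scaling to T cell gene counts turned every lower call of a member against LN Treg to higher and every higher call between the tumor groups to lower, and the remaining calls kept their direction. All genes then split 14357 higher to 632 lower, 15132 to 225 and, between the tumor groups, 132 to 15128, beside 7482 to 6253, 7550 to 6637 and 4204 to 3980. Against LN Treg 83 cytosolic and 75 mitochondrial members were higher and 0 lower in each tumor group, with cytosolic medians of 1.799 and 4.897 and mitochondrial ones of 2.22 and 5.40. In tumor pTreg against tumor tTreg 83 and 75 were lower and 0 higher (medians -3.09 and -3.17). Log2 fold changes of the named members that reversed were, for tumor pTreg against LN Treg, 1.40 for Mrpl24, 1.84 for Mrpl33, 1.74 for Mrpl52, 1.51 for Mrpl58, 1.62 for Mrps26, 1.72 for Mrps6, 1.78 for Rpl22, 2.005 for Rpl22l1, 2.08 for Rpl15, 1.32 for Rpl3, 1.14 for Rpl34, 1.55 for Rpl39, 1.28 for Rplp1, 1.63 for Rps24, 1.09 for Rps27 and 1.90 for Rps4x. For tumor tTreg against LN Treg they were 4.37 for Mrpl24, 4.62 for Mrpl33, 4.75 for Mrpl52, 4.68 for Mrpl58, 4.65 for Mrps26, 4.34 for Mrps6, 4.75 for Rpl22, 4.01 for Rpl3, 3.87 for Rpl34, 4.53 for Rpl39, 4.25 for Rplp1, 4.68 for Rps24, 3.93 for Rps27, 4.17 for Rps4l and 5.04 for Rps4x. Between the tumor groups they were -2.77 for Mrpl33, -2.62 for Mrps6, -2.69 for Rpl3, -2.73 for Rpl34 and -2.84 for Rps27.

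The cytosolic to mitochondrial ratio in LN Treg, tumor pTreg and tumor tTreg was 84.2, 59.8 and 57.3 on summed FPKM, 39.3, 29.6 and 28.1 with the ribosomal genes outside the naming pattern, and 45.3, 31.6 and 29.8 without the 5 most abundant members of each class, the same order each time.

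Replicate numbers did not pair the libraries. Over 9621 genes the correlation of deviations of same-numbered libraries ran from -0.0746 to 0.0967, and 2 of 10 libraries correlated best with their own number. The replicate block lost 7 cytosolic and 10 mitochondrial calls between the tumor groups and at most 2 of a class in the other comparisons. Depth limits Rps4l and the 5 names below 1 CPM, whose groups rest on few counts.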
